A study of Mus musculus with 9 samples.

Results

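The glycolysis and hypoxia response genes described here are 35 mouse genes, taken from a list of symbols of glucose transport, glycolysis, the pyruvate gate and oxygen sensing. Each symbol was matched to its Ensembl identifier, and all 35 were found among the 39179 genes of the count table. All 35 also passed the filter on low counts, which kept 18576 genes. The rule names symbols and uses no expression value.

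RNA was sequenced from LSK cells, the bone marrow fraction that lacks lineage markers and carries Sca1 and cKit, in which haematopoietic stem cells and early progenitors lie. All 9 libraries came from C57BL/6 mice aged 6 months that had received 5 intraperitoneal injections of poly(I:C), an inducer of interferon. The wild-type group (Dnmt3a+/+ with Mx1-Cre, labelled wt_Mx+) has 3 libraries. The mutant group (Dnmt3a+/m, a conditional knock-in allele with Mx1-Cre, labelled cKI_Mx+) has 4. The Cre-negative group (the conditional allele without Cre, labelled cKI_Cre-) has 2, and the design text gives it as Dnmt3a+/-. A library that is singled out is named by its group and title number, such as mutant_824. Mx1-Cre responds to interferon in many tissues, so recombination is not limited to blood cells. The wild-type mice carry Cre and the Cre-negative mice do not, so the allele and the absence of Cre cannot be told apart in that comparison. The labels do not say that the libraries of a group came from separate mice, so the p-values measure only the spread between these libraries.

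Gene counts per library ranged from 47792306 to 58405879. Dnmt3a, the targeted gene, stood at 93.5 and 118 CPM (the count of a gene relative to all gene counts of its library, after TMM scaling) in Cre-negative libraries and at 148 to 173 in the other 7. LSK markers were present in every library, with a summed level of 2315 to 3406 CPM. The lowest sum was that of cre_negative_819, where 2 of the 10 markers lay above their log2 mean. Its median log2 deviation over these markers was -0.41, against -0.050 to 0.15 in the other 8 libraries. The stem cell marker Procr stood at 11.7 CPM in cre_negative_819 and at 34.9 to 72.9 in the other 8. The library cre_negative_819 stood apart in its erythroid markers, whose 15 members summed to 2621 CPM against 261 to 489 in the other 8 libraries, with 14 of the 15 above their log2 mean there and 1 of them, a haemoglobin gene, at 0 in 1 other library. In bulk samples, fewer cells of a type and less RNA per cell cannot be told apart.

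Glycolysis turns glucose into pyruvate in the cytosol. Pyruvate is then either reduced to lactate by lactate dehydrogenase or passed to mitochondria by the pyruvate dehydrogenase complex, which the PDK kinases switch off. When oxygen falls, the prolyl hydroxylases encoded by Egln genes stop marking HIF alpha subunits for destruction, and HIF then binds DNA and raises transcription of many glycolytic genes. Haematopoietic stem cells are known for a strong use of glycolysis, and Hif1a and the PDK kinases have been linked to their quiescence.

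HIF binds DNA at a short core, ACGTG or GCGTG. RefSeq promoter windows (GRCm38.p6, 250 bases before to 50 after each start) were found for 33 of the 35 genes, Epas1 and Slc2a3 being the exceptions, and gave 49 windows, since some genes have several starts. ACGTG occurred on either strand in 51.0% of these windows and in 19.6% of all 32851 windows, and GCGTG in 57.1% against 32.4%. At least 1 of them was present in 79.6% of the windows of the list and in 43.8% of all windows. The median number of CG dinucleotides was 20 per window in the list and 7 in all windows, and each core holds a CG itself. The part of base composition in these shares was not tested, and a match is a description of letters, not a binding site.

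For each of 5 genes the window with the most matches is shown 5′ to 3′ on the strand of the gene, with every ACGTG and GCGTG, read on either strand, in capitals. Ldha is shown because it was the most abundant transcript of the list per length and its window held the most matches among those shown. Pkm, Pfkl, Pdk1 and Tpi1 are shown because these 4 genes passed the test between libraries with and without Y-linked transcripts once cre_negative_819 was left out. That test is described below. It called 0 of the 35 genes with all 9 libraries, and 0 with any single wild-type or mutant library left out. The Ldha window (chr7:46845554-46845853, plus strand) held 5 ACGTG and 2 GCGTG, with a palindromic CACGTG counted on both strands. The Pkm window (chr9:59656977-59657276, plus strand) held 2 ACGTG, the Pfkl window (chr10:78009758-78010057, minus strand) 1 GCGTG and the Pdk1 window (chr2:71872974-71873273, plus strand) 2 GCGTG. The Tpi1 window (chr6:124814109-124814408, minus strand) held neither. Of the second windows that are not shown, that of Ldha (chr7:46846832-46847131) held 2 GCGTG, and those of Pkm (chr9:59656326-59656625) and Pdk1 (chr2:71874654-71874953) held neither.
Ldha: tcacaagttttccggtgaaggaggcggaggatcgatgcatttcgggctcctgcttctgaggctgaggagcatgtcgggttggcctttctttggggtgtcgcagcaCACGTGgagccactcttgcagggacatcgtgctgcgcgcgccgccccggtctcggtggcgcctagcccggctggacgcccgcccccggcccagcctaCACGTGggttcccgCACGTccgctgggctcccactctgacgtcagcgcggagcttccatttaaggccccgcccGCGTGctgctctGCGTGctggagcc
Pkm: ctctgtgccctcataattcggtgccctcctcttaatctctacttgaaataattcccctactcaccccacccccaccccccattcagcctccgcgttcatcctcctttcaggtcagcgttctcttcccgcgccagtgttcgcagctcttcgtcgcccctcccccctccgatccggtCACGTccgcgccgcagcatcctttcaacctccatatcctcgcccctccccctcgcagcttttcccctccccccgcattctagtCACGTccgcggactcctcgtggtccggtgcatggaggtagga
Pfkl: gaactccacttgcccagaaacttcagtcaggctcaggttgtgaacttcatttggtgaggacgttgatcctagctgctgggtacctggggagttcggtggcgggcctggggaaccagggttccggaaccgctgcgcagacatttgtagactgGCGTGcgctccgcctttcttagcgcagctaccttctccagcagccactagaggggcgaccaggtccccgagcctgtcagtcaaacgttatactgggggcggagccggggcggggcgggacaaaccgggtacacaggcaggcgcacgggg
Pdk1: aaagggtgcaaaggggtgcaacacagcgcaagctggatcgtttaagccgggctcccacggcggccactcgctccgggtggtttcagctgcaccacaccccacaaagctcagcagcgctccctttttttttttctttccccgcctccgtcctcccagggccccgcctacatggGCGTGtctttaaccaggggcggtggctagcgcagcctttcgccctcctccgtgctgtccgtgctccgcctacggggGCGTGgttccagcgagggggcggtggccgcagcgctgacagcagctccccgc
Tpi1: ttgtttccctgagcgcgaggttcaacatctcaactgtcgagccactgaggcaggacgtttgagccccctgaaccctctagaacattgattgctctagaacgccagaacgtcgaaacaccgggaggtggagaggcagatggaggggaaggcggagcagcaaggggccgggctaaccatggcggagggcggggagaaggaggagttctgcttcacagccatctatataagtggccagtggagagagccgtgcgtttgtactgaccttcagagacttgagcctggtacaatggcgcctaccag

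Levels between genes were compared as CPM per kb of exon, averaged over the 9 libraries with the SD between them. Ldha (ENSMUSG00000063229, chromosome 7, 46841475 to 46855627 of GRCm38), which encodes the muscle-type lactate dehydrogenase subunit, had the highest mean, 172 ± 32.7 CPM per kb. Pkm, the pyruvate kinase of proliferating and many other tissues, followed at 157 ± 38.9, then the triose isomerase gene Tpi1 at 125 ± 23.0 and the aldolase gene Aldoa at 120.0 ± 16.7. Ldha and Pkm differed by less than 1 SD, as did Tpi1 and Aldoa. With the longest transcript as the length, Pkm came first and Ldha second, and the ranks of the 35 genes correlated between the length definitions with a Spearman rho of 0.974.

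Gapdh, Pdha1, which encodes the E1 alpha subunit of pyruvate dehydrogenase, and the glucose phosphate isomerase gene Gpi1 formed the next tier at 67.9 ± 11.4, 67.8 ± 6.92 and 65.5 ± 5.81 CPM per kb, again closer to each other than their SD. The lowest were Pdk4 at 0.285 ± 0.222 and Epas1, which encodes HIF-2 alpha, at 0.116 ± 0.0471 CPM per kb. Their smallest library counts were 12 and 18 reads, so these levels carry the widest intervals of the list.

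**Figure D1:**
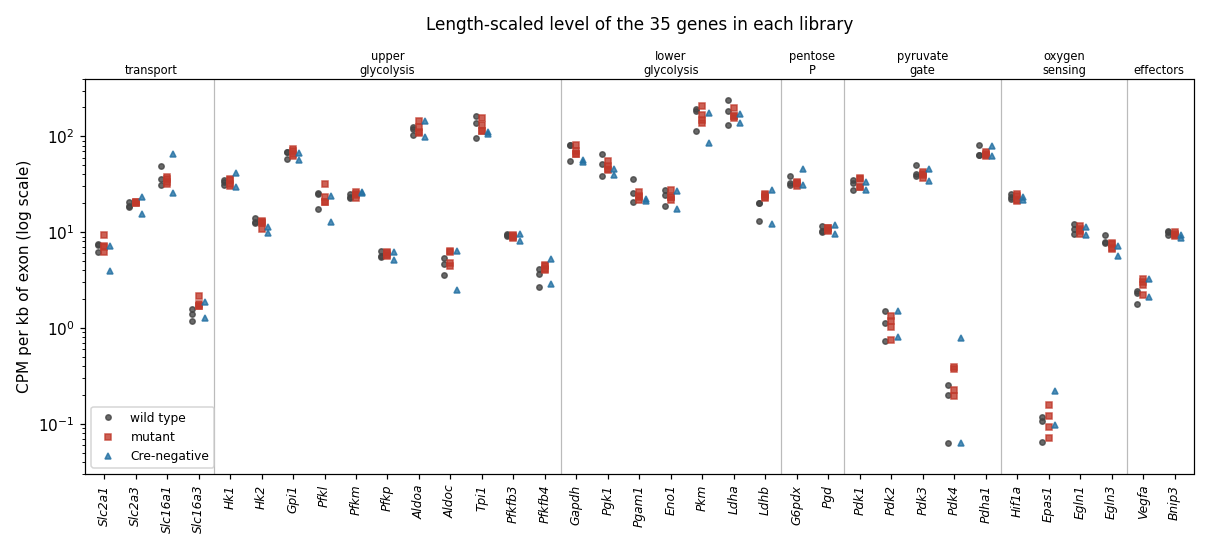
Level of each of the 35 genes as CPM per kb of exon (log scale), 1 point per library, with wild-type libraries as circles (n = 3), mutant as squares (n = 4) and Cre-negative as triangles (n = 2). Genes stand in order of their role, Ldha and Pkm are the highest, Pdk4 and Epas1 the lowest, and the 3 groups lie over each other for most genes.

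Processed pseudogenes are a known trait of glycolytic genes, and reads that did not align uniquely were not counted. Stretches of 50 bases shared with transcripts of other genes covered 72.2% of the longest Eno1 transcript, 68.0% of Pgk1, 62.4% of Bnip3, 41.5% of Pgam1, 34.4% of Pkm and 27.8% of Gapdh. The last shared stretches with 103 other genes. In all, 12 genes shared more than 10% and 13 shared none. The search covered both strands and included genes that overlap at the same place, such as Map3k15, which held 16.5% of the Pdha1 stretches. Uncounted reads may lower the levels of the 12 genes and an overlapping gene may add reads, so their order is uncertain. Exons of 12 genes also overlapped a gene on the opposite strand, with the highest share for Bnip3 (22.3%), Pdha1 (16.1%) and G6pdx (13.6%). Whether reads were counted by strand is not stated in the labels, so reads of those overlaps cannot be assigned. Exons of Pkm (15.3%), Pfkm (10.2%) and Hif1a (2.5%) overlapped a gene on the same strand, which counting by strand would not resolve.

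Among the listed genes of an enzyme family, 1 isozyme usually carried most of the length-scaled level. Isozymes outside the list were left out of these shares, such as Hk3, with a mean of 121 CPM over the 9 libraries beside 72.5 for Hk2. Hif1a made up 99.6% ± 0.144 (SD) of the HIF alpha pair in the 3 wild-type libraries and 99.5% ± 0.190 in the 4 mutant libraries, and the SDs below are over the same libraries. Aldoa made up 96.2% ± 0.757 and 95.8% ± 0.364 of the aldolase pair, with Aldoc, the brain-type form, as the rest. The lactate transporter pair was mostly Slc16a1 (MCT1), and Slc16a3 (MCT4) made up 3.53% ± 0.351 of it in wild type and 5.00% ± 0.369 in mutant libraries.

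Ldha held 90.6% ± 4.11 of the lactate dehydrogenase pair in wild type and 87.6% ± 0.884 in mutant libraries. Hk1 held 71.8% ± 0.972 and 73.1% ± 2.47 of the hexokinase pair, and Slc2a3 (GLUT3) held 73.2% ± 3.12 and 73.4% ± 3.17 of the glucose transporter pair. Phosphofructokinase had no single main form, with Pfkm at 45.7% ± 3.70, Pfkl at 43.1% ± 4.27 and Pfkp at 11.2% ± 0.993 in wild type. The prolyl hydroxylase pair was nearer even, with Egln1 at 56.6% ± 1.90 and Egln3 at 43.4% ± 1.90 in wild type. Of the PDK kinases, Pdk3 (56.5% ± 2.17) and Pdk1 (41.8% ± 2.03) made up nearly all of the wild-type level, and Pdk2 (1.53% ± 0.693) and Pdk4 (0.219% ± 0.109) little.

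Mutant libraries were set against wild type to see how the Dnmt3a knock-in allele bears on expression in these cells, and none of the 35 genes was called different. The summed level of the list was 5310 ± 833 CPM (SD) over the 3 wild-type libraries and 5279 ± 534 (SD) over the 4 mutant libraries. The log2 fold changes of 34 of the 35 genes lay within 0.5 of zero, and 19 were positive. That count was 10 with limma-voom and sample quality weights and ran from 14 to 29 with each library left out in turn. Their median was 0.017, beside -0.020 over all 18576 genes tested, of which 8484 were positive.

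The quasi-likelihood test of edgeR called 0 of the 35 genes at an adjusted p under 0.05, with 0% of all genes called, and DESeq2 also called 0 of the 35, with 0.152% of all genes called. At an unadjusted edgeR p under 0.05 the count was again 0 of 35, against 3.17% of all genes. Mutant and wild-type levels did not overlap for 3 of the 35 (Slc16a3 and Ldhb above, Egln3 below), against 8.32% of all genes. For 33 of the 35 genes the 95% interval excluded a 2-fold change in either direction; the intervals of Pdk4 and Epas1 were wider.

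In marker lists of other cell types and of proliferation, edgeR called 0 genes, but several lists had log2 fold changes mostly of 1 sign. Positive log2 fold changes were found for all 11 neutrophil markers (median 1.54), all 11 B cell markers (0.90), all 8 tested megakaryocyte markers (0.27), 9 of 11 monocyte and macrophage markers (0.75) and 5 of 7 tested T and NK cell markers (0.38). They were found for 0 of 12 proliferation markers (median -0.16), 2 of 15 erythroid markers (-0.24) and 3 of 7 tested mast cell and basophil markers (-0.22). Neutrophil markers summed to 53.6 to 168 CPM in wild type and 136 to 428 in mutant libraries, B cell markers to 39.2 to 56.3 and 52.1 to 76.3, and megakaryocyte markers to 315 to 387 and 364 to 461. Monocyte and macrophage markers summed to 37.0 to 63.0 and 45.7 to 84.4 CPM, T and NK cell markers to 90.6 to 116 and 85.0 to 114, and mast cell and basophil markers to 95.2 to 122 and 75.5 to 120. Proliferation markers summed to 4491 to 7255 and 4770 to 5451 CPM, and erythroid markers to 264 to 489 and 261 to 443. The sums of the 8 lists overlapped between the groups. Marco, Gp6, Cd3e, Ncr1 and Tpsb2 were at 0 in at least 1 library, and the part of these cell types in the levels of the 35 genes was not tested.

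Among the transporters, which take up glucose and release lactate, Slc16a3 had the lowest unadjusted p of the list. Slc16a3 stood at 6.28, 8.43 and 7.46 CPM in wild type, 11.4, 9.11, 9.04 and 9.38 in mutant and 9.98 and 6.76 in Cre-negative libraries. Every mutant library was above every wild-type library, with mutant_824 highest. The Cre-negative pair had 1 library in the range of each group. The mutant log2 fold change was 0.40 (SE 0.18, 95% interval -0.0096 to 0.81), with an unadjusted p of 0.0546 and an adjusted p of 0.998 in edgeR.

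Slc2a3 stood at 148, 133 and 134 CPM in wild type, 149, 149, 144 and 146 in mutant and 167 and 113 in Cre-negative libraries. The 4 mutant libraries lay close together, and the groups overlapped. Slc2a1 stood at 21.7, 25.5 and 26.5 CPM in wild type, 32.6, 25.2, 21.6 and 24.5 in mutant and 25.3 and 13.7 in Cre-negative libraries, with mutant_824 highest and cre_negative_819 lowest. Mutant minus wild-type log2 differences were 0.088 (SE 0.12) for Slc2a3 and 0.081 (SE 0.21) for Slc2a1 (GLUT1).

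In upper glycolysis, where hexokinase traps glucose and phosphofructokinase commits it to breakdown, 8 of 11 genes had positive log2 fold changes, with a median of 0.055 and 0 called by edgeR. Hk1 stood at 267, 298 and 286 CPM in wild type, 305, 299, 259 and 273 in mutant and 254 and 349.7 in Cre-negative libraries, and the groups overlapped. Hk2 stood at 76.1, 83.8 and 74.5 CPM in wild type, 77.9, 64.1, 74.0 and 75.8 in mutant and 67.8 and 58.9 in Cre-negative libraries, with both Cre-negative libraries and mutant_827 at the low end. The mutant differences were 0.00094 (SE 0.12) for Hk1 and -0.10 (SE 0.10) for Hk2, the hexokinase that HIF is known to induce.

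Pfkl was at 116, 166 and 170.2 CPM in wild type, 214, 155, 138 and 137 in mutant and 161 and 84.6 in Cre-negative libraries. The range within each group was wide, with cre_negative_819 lowest and mutant_824 highest of all 9. Pfkp was at 73.3, 84.9 and 76.0 CPM in wild type, 80.8, 75.3, 77.2 and 82.8 in mutant and 83.7 and 68.3 in Cre-negative libraries, a narrow range in which the groups overlapped. The log2 fold changes in the mutant were 0.10 (SE 0.24, 95% interval -0.43 to 0.62) for Pfkl and 0.017 (SE 0.10, 95% interval -0.21 to 0.24) for Pfkp, the liver-type and platelet-type subunits.

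Lower glycolysis and the lactate step had 3 of 7 positive log2 fold changes, with a median of -0.034 and 0 called. Ldha was measured at 436, 796 and 612 CPM in wild type, 648, 544, 518 and 542 in mutant and 458 and 570.5 in Cre-negative libraries. Wild-type libraries spanned nearly the whole range, and the groups overlapped. Ldhb was measured at 31.9, 20.5 and 31.5 CPM in wild type, 38.8, 36.0, 36.9 and 38.7 in mutant and 43.6 and 19.3 in Cre-negative libraries. All 4 mutant libraries lay above the 3 wild-type libraries, and the Cre-negative libraries were the lowest and the highest of all 9.

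The mutant log2 fold changes were -0.13 (SE 0.19, 95% interval -0.54 to 0.28) for Ldha and 0.43 (SE 0.25, 95% interval -0.12 to 0.97) for Ldhb, which encodes the heart-type subunit. The edgeR adjusted p was 0.998 for both. The log2 ratio of Ldha to Ldhb differed by -0.54 (mutant minus wild type), with an exact two-sided permutation p of 0.286.

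Across the 4 isozyme pairs (Ldha to Ldhb, Hk2 to Hk1, Pfkp to Pfkl and Slc2a3 to Slc2a1) and 3 comparisons, 12 exact two-sided permutation tests gave no adjusted p below 0.6. The smallest p that these designs allow is 0.0571 between mutant and wild type, 0.2 between Cre-negative and wild type, and 0.133 between mutant and Cre-negative libraries. No result below 0.05 was therefore possible. In the mutant comparison the other 3 ratios differed by -0.10 (Hk2 to Hk1), -0.074 (Pfkp to Pfkl) and 0.021 (Slc2a3 to Slc2a1) on the log2 scale, with exact permutation p of 0.4, 0.743 and 0.857.

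At the pyruvate gate, 2 of 5 genes had positive log2 fold changes between mutant and wild type, and 0 were called. Pdk1 stood at 215, 274 and 256 CPM in wild type, 283, 282, 230.4 and 228 in mutant and 259.6 and 213 in Cre-negative libraries. Levels fell into a higher and a lower set within each group, and the groups overlapped. Pdk3 stood at 98.9, 130.0 and 103 CPM in wild type, 109.9, 102, 94.4 and 104 in mutant and 86.5 and 116 in Cre-negative libraries, overlapping between groups. Log2 fold changes in the mutant were 0.045 (SE 0.13, 95% interval -0.24 to 0.33) for Pdk1, a HIF target, and -0.11 (SE 0.13, 95% interval -0.40 to 0.18) for Pdk3.

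The 2 scarce kinases varied more. Pdk2 was found at 4.79, 2.33 and 3.54 CPM in wild type, 2.40, 3.73, 4.24 and 3.25 in mutant and 2.53 and 4.80 in Cre-negative libraries, with overlapping groups. Pdk4 was found at 0.223, 0.903 and 0.700 CPM in wild type, 0.799, 1.32, 0.689 and 1.37 in mutant and 2.78 and 0.220 in Cre-negative libraries, from 12 reads in the poorest library, and the groups overlapped. Their log2 fold changes were -0.061 (SE 0.31) and 0.78 (SE 0.72, 95% interval -0.82 to 2.38), and the interval of Pdk4 includes rises of more than 2-fold.

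None of the 4 oxygen sensing genes passed the test between mutant and wild type. Hif1a stood at 136, 148 and 129.7 CPM in wild type, 147, 142, 125 and 128 in mutant and 128 and 137 in Cre-negative libraries. These levels overlapped in all 3 groups, and the mutant log2 fold change was -0.024 (SE 0.093, 95% interval -0.23 to 0.18). Epas1 stood at 0.596, 0.361 and 0.662 CPM in wild type, 0.399, 0.518, 0.671 and 0.874 in mutant and 1.22 and 0.550 in Cre-negative libraries, with cre_negative_780 the highest and the other libraries intermixed. Its fold change was 0.19 (SE 0.41, 95% interval -0.72 to 1.10) on the log2 scale.

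Egln1 stood at 34.8, 43.5 and 39.2 CPM in wild type, 41.6, 39.0, 37.4 and 34.5 in mutant and 41.1 and 33.3 in Cre-negative libraries. The lowest was cre_negative_819, and the log2 fold change was -0.040 (SE 0.12, 95% interval -0.31 to 0.23). Egln3 stood at 21.3, 25.0 and 20.6 CPM in wild type, 20.4, 18.1, 20.2 and 17.8 in mutant and 14.9 and 19.1 in Cre-negative libraries. For Egln3, itself a HIF-induced prolyl hydroxylase, each mutant and each Cre-negative library lay below the 3 wild-type libraries. The mutant log2 fold change was -0.22 (SE 0.13, 95% interval -0.51 to 0.068), with an unadjusted p of 0.120 and an adjusted p of 0.998 in edgeR.

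Of the hypoxia-induced effectors, Vegfa, which encodes the vessel growth factor VEGF-A, had the second lowest unadjusted p of the list. Vegfa stood at 9.89, 7.59 and 10.5 CPM in wild type, 9.42, 11.9, 13.8 and 13.0 in mutant and 13.9 and 8.92 in Cre-negative libraries. The value of mutant_824 lay within the wild-type range and the other 3 mutant libraries above it. The log2 fold change was 0.37 (SE 0.20, 95% interval -0.087 to 0.82), with an unadjusted p of 0.102 and an adjusted p of 0.998 in edgeR. Bnip3, a mitophagy receptor, spanned only 19.8 to 23.4 CPM over all 9 libraries.

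The other 17 genes are given by their range over the 9 libraries. Among the enzymes of upper glycolysis these were Gpi1 (363 to 477 CPM), Pfkm (75.3 to 87.4), Aldoa (283 to 425), Aldoc (8.04 to 20.8) and Tpi1 (262 to 444). Pfkfb3 and Pfkfb4, whose enzymes make and break the activator of phosphofructokinase, ranged over 61.5 to 72.3 and 13.1 to 25.9 CPM. In lower glycolysis Gapdh ranged over 224 to 337, the phosphoglycerate kinase gene Pgk1 over 86.6 to 147, Pgam1 over 40.7 to 70.4, the enolase gene Eno1 over 93.9 to 149 and Pkm over 429 to 1034 CPM.

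Pdha1 ranged over 233 to 300.0 CPM and the lactate transporter gene Slc16a1 over 115 to 288, its top value being cre_negative_819. At the entry to the pentose phosphate pathway, G6pdx ranged over 94.0 to 142 and Pgd, the next dehydrogenase, over 62.2 to 77.4 CPM. The narrowest ranges of the 17 belonged to genes with little spread in any group, such as Bnip3, Pfkfb3 and Pfkm. For each of the 17, mutant and wild-type libraries overlapped.

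**Figure D2:**
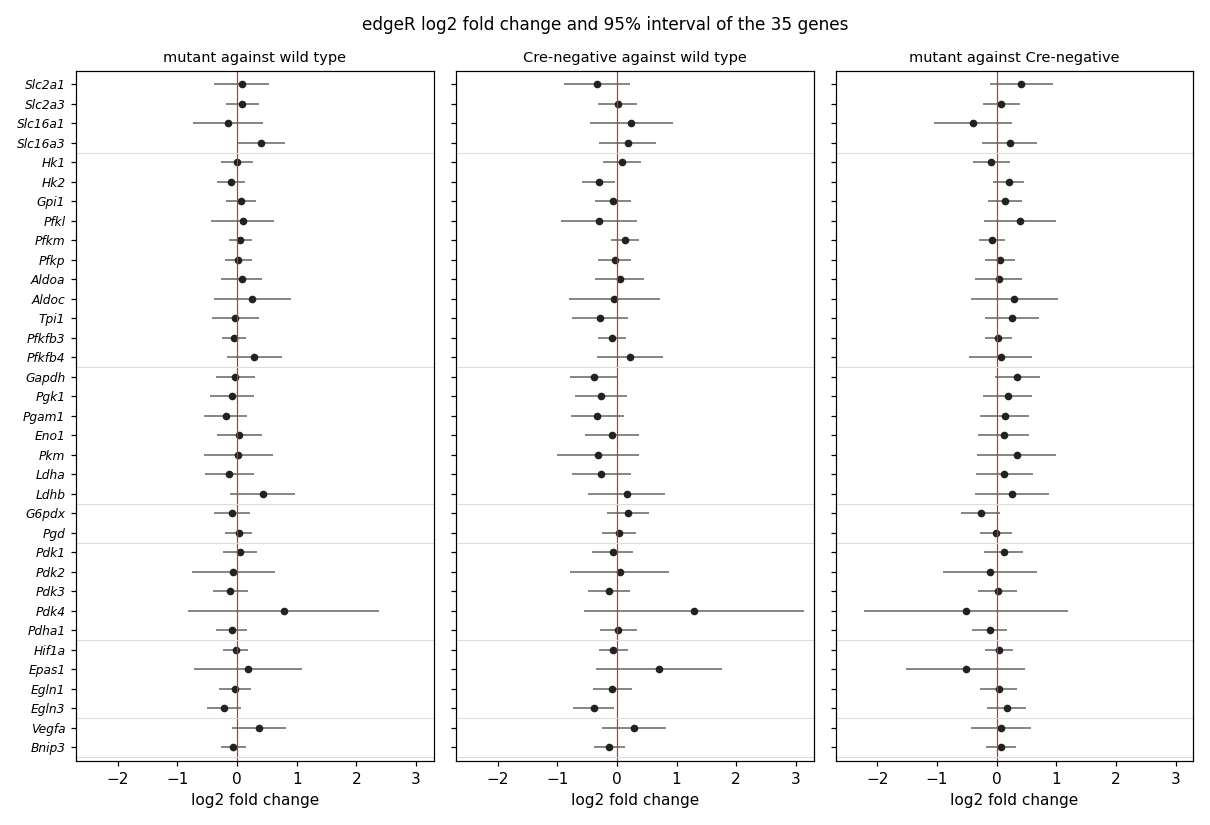
Log2 fold change of each of the 35 genes in edgeR (points) with its 95% interval (bars) in the 3 comparisons, drawn from all 9 libraries. Between mutant and wild type 33 of 35 intervals lie within 1 of zero, and the widest belong to Pdk4 and Epas1.

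Cre-negative mice carry the conditional allele without Cre, and against wild type 0 of the 35 genes passed at an adjusted p under 0.05 in edgeR, with 0% of all genes called. DESeq2 called 0 of the 35, against 0.278% of all genes. At an unadjusted edgeR p under 0.05, 2 of the 35 were lower (Egln3 and Hk2) and 0 higher, against 1.59% of all genes lower and 3.64% higher. Levels did not overlap for 4 of the 35, Pfkm above and Egln3, Hk2 and Bnip3 below, against 11.4% of all genes. The median log2 fold change was -0.057, beside 0.017 over all genes, with 15 of 35 positive (7 without cre_negative_780).

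Egln3 stood at 14.9 and 19.1 CPM against 21.3, 25.0 and 20.6 in wild type, a log2 fold change of -0.39 (SE 0.16) with an unadjusted p of 0.0323 and an adjusted p of 0.865. Hk2 stood at 67.8 and 58.9 CPM against 76.1, 83.8 and 74.5, a log2 fold change of -0.30 (SE 0.12) with an unadjusted p of 0.0350 and an adjusted p of 0.875 in edgeR. For both genes each Cre-negative library was below each wild-type library. Gapdh, the glyceraldehyde phosphate dehydrogenase gene, stood at 236 and 224 against 226, 335 and 336 CPM, and the groups overlapped. The Gapdh log2 fold change was -0.38 (SE 0.18), with an unadjusted p of 0.0569 and an adjusted p of 0.987 in edgeR. Pgam1, the phosphoglycerate mutase gene, stood at 42.3 and 43.8 against 40.7, 70.4 and 50.7 CPM and overlapped, with a log2 fold change of -0.33 (SE 0.20) and an unadjusted p of 0.129. Gapdh and Pgam1 are among the genes that share stretches with pseudogenes.

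For the 16 genes of oxygen sensing, the PDK kinases and the 4 isozyme pairs, the Cre-negative log2 fold changes ran from -0.39 to 1.29, the highest being that of Pdk4, and the lowest adjusted p was 0.865 in edgeR. Isozyme ratios differed from wild type by -0.31 (Ldha to Ldhb), -0.37 (Hk2 to Hk1), 0.30 (Pfkp to Pfkl) and 0.37 (Slc2a3 to Slc2a1), with exact permutation p of 0.8, 0.4, 0.4 and 0.4. The 95% interval excluded a 2-fold change for 32 of the 35 genes, all but Pkm, Pdk4 and Epas1.

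The Cre-negative pair was itself divided over these genes. The library cre_negative_819 was below all 8 other libraries for 18 of the 35 genes, above all of them for 4 (Hk1, Pdk2, Slc16a1 and G6pdx) and within their range for 13. Over all genes tested it was the lowest library for 21.8%. Pkm stood at 878 and 429 CPM in cre_negative_780 and cre_negative_819, Aldoc at 20.8 and 8.04 and Slc16a1 at 115 and 288. The erythroid markers of cre_negative_819, given above, moved with these levels, and their part in them was not tested. Among the wider glycolytic genes, the erythroid pyruvate kinase gene Pklr was at 60.9 CPM in cre_negative_819 and at 2.73 to 13.3 in the other 8.

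Mutant and Cre-negative mice both carry the conditional allele and differ by Mx1-Cre, and 0 of the 35 genes were called between them by edgeR, with 0% of all genes called. By DESeq2 the count was 0 as well, against 0.13% of all genes. At an unadjusted edgeR p under 0.05 there were 0 of 35, against 5.26% of all genes, and levels did not overlap for 2 (Gapdh and Tpi1, both above), against 12.4%. The median log2 fold change was 0.074, beside -0.032 over all genes, and 26 of 35 were positive. These comparisons share libraries, so their values are given side by side and not set against each other.

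Gapdh stood at 337, 291, 272 and 269 CPM in mutant and 236 and 224 in Cre-negative libraries, a log2 fold change of 0.35 (SE 0.17) with an unadjusted p of 0.0667 and an adjusted p of 0.912 in edgeR. G6pdx, which encodes the first enzyme of the pentose phosphate pathway, stood at 103, 98.3, 94.0 and 99.3 CPM in mutant and 96.2 and 142 in Cre-negative libraries, with cre_negative_819 alone above the mutant range. Its log2 fold change was -0.27 (SE 0.15), and those of Slc2a1 and Hk2 were 0.41 (SE 0.24) and 0.20 (SE 0.12), with unadjusted p from 0.103 to 0.116 and adjusted p from 0.917 to 0.927. For the same 16 genes the range was -0.52 to 0.41. Ratios of isozymes differed by -0.23 (Ldha to Ldhb), 0.27 (Hk2 to Hk1), -0.38 (Pfkp to Pfkl) and -0.35 (Slc2a3 to Slc2a1), with exact permutation p of 0.667, 0.4, 0.4 and 0.267. The 95% interval excluded a 2-fold change for 31 of the 35 genes.

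This comparison depended on which Cre-negative library was used. With cre_negative_780 left out, edgeR called 6 of the 35 genes, with 1835 of 19301 genes (9.51%) called, and the lone cre_negative_819 was assumed to vary like the other groups. Aldoc, Ldhb, Slc2a1 and Slc2a3 were then higher in the mutant, by log2 fold changes of 1.19 (SE 0.27), 1.01 (SE 0.23), 0.96 (SE 0.22) and 0.43 (SE 0.10). Slc16a1 and G6pdx were lower in the mutant, at -0.86 (SE 0.19) and -0.48 (SE 0.12), and the 6 edgeR adjusted p ran from 0.0220 to 0.0351. With cre_negative_819 left out the count was 0.

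Other genes of the same pathways were read from wider lists, of which 69 of 77 genes passed the filter and 0 were called by edgeR or DESeq2 in any comparison. Between mutant and wild type 34 of the 69 were positive. At an unadjusted edgeR p under 0.05 there was 1 higher, Gpd1, the cytosolic glycerol phosphate dehydrogenase gene, and 0 lower, against 1.86% and 1.31% of all genes. Mean Gpd1 levels were 1.29 CPM (wild type) and 2.01 CPM (mutant) (log2 fold change 0.64, SE 0.27, unadjusted p = 0.0403). The gluconeogenic gene Fbp1 was at 41.1, 67.9 and 66.5 CPM in wild type and at 15.95, 71.4, 13.2 and 10.9 in mutant libraries (-1.07, SE 0.58, unadjusted p = 0.0950), with mutant_827 highest of all 9 and the other 3 mutant libraries below wild type. The transporter gene Slc2a8 averaged 5.12 and 6.22 CPM (0.28, SE 0.16, unadjusted p = 0.110). All 8 genes of pyruvate entry into mitochondria, such as the pyruvate carrier genes, had negative values, with a median of -0.088 beside -0.020 over all genes.

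In the Cre-negative group 4 of the 69 genes were higher than wild type at an unadjusted p under 0.05 and 0 lower, against 3.64% and 1.59% of all genes. The lowest p belonged to the lipid droplet gene Plin2 (54.4 CPM in wild type and 69.7 in Cre-negative libraries on average, log2 fold change 0.36, SE 0.12), then Slc2a8 (0.52, SE 0.19) and Pklr (2.33, SE 0.85), with edgeR adjusted p of 0.814, 0.826 and 0.828. Between mutant and Cre-negative libraries 4 of the 69 were lower and 0 higher, against 3.71% and 1.55% of all genes, led by Pklr (-2.54, SE 0.78), Plin2 (-0.33, SE 0.12) and Hif3a (-0.77, SE 0.33), with adjusted p of 0.801, 0.844 and 0.912. The Pklr values rest on cre_negative_819, the other Cre-negative library standing at 6.44 CPM.

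Libraries differed in a way that the groups did not explain. The labels give no sex, but 4 Y-linked transcripts summed to 426 to 475 CPM in 5 libraries (2 wild-type, 2 mutant and 1 Cre-negative) and to at most 0.149 CPM in the other 4 (1 wild-type, 2 mutant and 1 Cre-negative). Every group thus held both kinds. A model with group and Y-linked class was fitted after this was seen, and it compares libraries that the study did not set out to compare. The summed level of the 35 genes was 5113 to 6022 CPM in the 5 libraries with Y-linked transcripts and 4392 to 4952 in the 4 without, with no overlap.

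In that model 29 of the 35 genes had positive log2 differences (libraries with minus without Y-linked transcripts), with a median log2 difference of 0.16 beside -0.0041 over all genes. The edgeR test called 0 of the 35 at an adjusted p under 0.05, against 0.167% of all genes called higher and 0.14% lower. The genes called higher include the 4 Y-linked genes that defined the classes. At an unadjusted p under 0.05, 12 of the 35 (34.3%) were higher, against 9.62% of all genes, and 1, Pdk2, was lower, against 9.61%. Levels were above without overlap for 8 of the 35, against 4.31% of all genes, and below for 0, against 3.06%.

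Pkm stood at 957, 916, 1034, 829.5 and 878 CPM in the 5 libraries with Y-linked transcripts (wild type, then mutant, then Cre-negative) and 568, 695, 739 and 429 in the 4 without, a log2 difference of 0.63 (SE 0.12, edgeR adjusted p = 0.0809). Pfkl stood at 166, 170.2, 214, 155 and 161 against 116, 138, 137 and 84.6 CPM, a difference of 0.58 (SE 0.12, edgeR adjusted p = 0.0838). Pdk1 stood at 274, 256, 283, 282 and 259.6 against 215, 230.4, 228 and 213 CPM, a difference of 0.30 (SE 0.065, edgeR adjusted p = 0.0858). In all 3 genes the 2 classes were separate within wild type, within mutant and within Cre-negative libraries. Tpi1 differed by 0.37 (SE 0.11, edgeR adjusted p = 0.139) but overlapped between classes, since cre_negative_780 lay below mutant_829 and mutant_830.

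The other genes without overlap were Aldoa (349 to 425 CPM against 283 to 321), Eno1 (126 to 149 CPM against 93.9 to 126), Gpi1 (433 to 477 CPM against 363 to 419), Slc2a1 (25.2 to 32.6 CPM against 13.7 to 24.5) and Egln1 (39.0 to 43.5 CPM against 33.3 to 37.4). Their log2 differences ran from 0.22 for Gpi1 to 0.43 for Slc2a1, with edgeR adjusted p from 0.1 to 0.164. The Eno1 levels of mutant_830 and mutant_827 were nearly equal. Ldha, the most abundant gene per length, differed by 0.21 (SE 0.16, edgeR adjusted p = 0.516) and overlapped. Hif1a overlapped too, with a difference of 0.072 (SE 0.079, edgeR adjusted p = 0.67). The X-linked genes Pgk1, Pdk3, Pdha1 and G6pdx also overlapped, at 86.6 to 103, 94.4 to 116, 235 to 294 and 94.0 to 142 CPM without Y-linked transcripts and 89.2 to 147, 86.5 to 130.0, 233 to 300.0 and 96.2 to 118 with them.

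**Figure D3:**
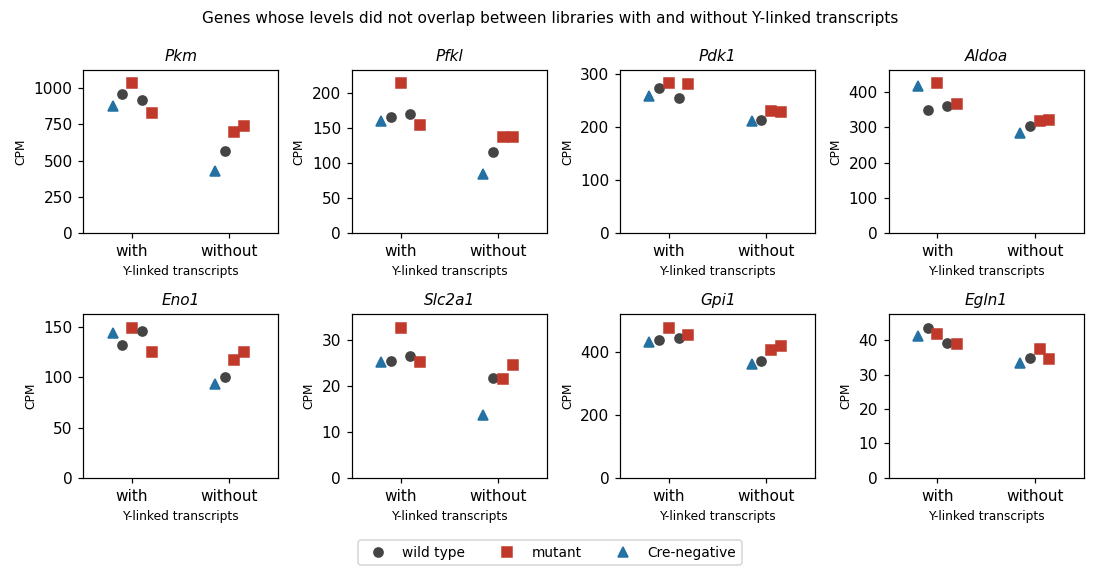
CPM of the 8 genes whose levels did not overlap between the 5 libraries with and the 4 without Y-linked transcripts, 1 point per library, with wild-type libraries as circles, mutant as squares and Cre-negative as triangles. Pkm lies between 829.5 and 1034 CPM with Y-linked transcripts and between 429 and 739 without, and in every panel cre_negative_819 is lowest.

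Without cre_negative_819, which has the lowest level of 18 genes, edgeR called 4 of the 35 higher in this model (Pdk1, Pfkl, Pkm and Tpi1), with 241 of 19497 genes called higher and 343 lower. Their adjusted p without cre_negative_819 were 0.0380, 0.0436, 0.0348 and 0.0436, with log2 differences of 0.29, 0.46, 0.50 and 0.45. The same 4 genes were called with wild-type and mutant libraries alone, with 307 of 17708 genes called higher and 442 lower. These fits share libraries, so they are not separate evidence. Leaving out any single wild-type or mutant library called 0 of the 35, with 4 to 20 of all genes called higher.

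Other measures moved with the Y-linked class. The share of reads in no annotated feature was 13.6% to 18.2% in the 5 libraries with Y-linked transcripts and 17.8% to 23.1% in the 4 without, and erythroid markers summed to 261 to 326 and 319 to 2621 CPM. LSK markers summed to 3228 to 3406 CPM with Y-linked transcripts and 2315 to 3183 without, with no overlap. The largest part was Cd34, at 1017 to 1498 and 904 to 1109 CPM, and without Cd34 the LSK sums overlap. In the model, 9 of 10 LSK markers had positive log2 differences, with a median of 0.16, like the 0.16 of the 35 genes. The summed T and NK cell markers also did not overlap between the classes, at 101 to 116 and 78.1 to 90.6. Most of that sum was Nkg7, a granule gene of these cells, which itself overlapped, at 77.3 to 109 and 71.1 to 79.7. Of the 7 tested T and NK cell markers only 3 had positive log2 differences, with a median of -0.26, so the sum mostly reflects 1 gene. The sums of the other lists overlapped, at 37.0 to 69.7 and 62.0 to 84.4 CPM for monocytes and macrophages, 315 to 399.7 and 364 to 461 for megakaryocytes, 53.6 to 335 and 40.9 to 428 for neutrophils, 46.5 to 72.7 and 39.2 to 76.3 for B cells, 106 to 122 and 75.5 to 178 for mast cells and basophils, and 4099 to 7255 and 4491 to 6609 for proliferation. Log2 differences in the model were positive for 0 of 11 monocyte and macrophage (median -0.58), 3 of 15 erythroid (-0.91) and 2 of 8 megakaryocyte markers (-0.36). They were positive for 7 of 11 neutrophil (0.068), 5 of 11 B cell (-0.032), 3 of 7 mast cell and basophil (-0.074) and 7 of 12 proliferation markers (0.028). At an unadjusted edgeR p under 0.05, 9 erythroid and 4 monocyte and macrophage markers were lower, against 9.61% of all genes. The part of these measures in the difference was not tested. With the no-feature share as a covariate, edgeR called 8 of the 35 genes higher and 4 lower, with 1485 and 1645 of all genes. Without the covariate, 31 and 26 of all genes were called. Pdk1, Pfkl and Pkm were among the genes called with it, and Tpi1 was not. The share and the Y-linked class moved together over 9 libraries, so this fit cannot tell their parts apart.

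**Figure D4:**
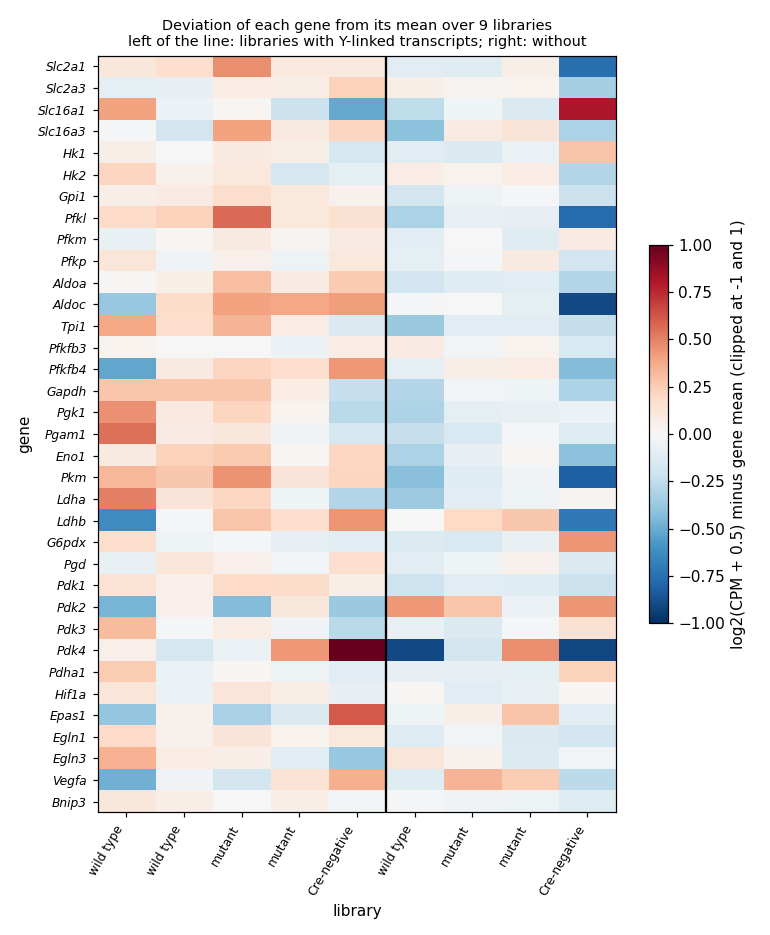
Deviation of each gene (rows, by role) from its own mean over the 9 libraries, as log2(CPM + 0.5), with colour from -1 (blue) to 1 (red) and libraries in columns labelled by group, those with Y-linked transcripts left of the line. Pkm, Pfkl, Pdk1, Aldoa, Eno1, Slc2a1, Gpi1 and Egln1 are redder on the left, and the Cre-negative column at the right edge holds the deepest blue for Pkm, Pfkl and Slc2a1.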

How the data were processed

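RNA-seq of sorted LSK cells was made into stranded, ribosomal RNA-depleted libraries, per the labels' protocols. The authors deposited raw counts per Ensembl gene. STAR, HTSeq 0.5.3p3, DESeq2 and the build mm10 (GRCm38) are named in the submitters' processing notes, and strand handling is not given in the sources used here. A second deposited table of scaled values was not used.

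The 5 rows that name no gene (40.5% to 47.3% of counts, of which 21.6% to 28.3% of counts did not align uniquely) were left out. Symbols, coordinates and exon lengths came from GENCODE for GRCm38, which matched 37607 of 39179 identifiers. Genes were kept with filterByExpr by group, scaled by TMM and fitted with 1 mean per group over all 9 libraries in the quasi-likelihood test of edgeR 4.0.16 (R 4.3.3), two-sided, with Benjamini-Hochberg adjustment over 18576 genes at 0.05. The SE was taken as the size of the log2 fold change over the root of its F statistic. DESeq2 1.42.0, limma 3.58.1, other scalings, filters and each library left out were alternatives. Libraries of a group differed by more than sampling noise. The edgeR fit was also tested on simulated data with known changes.

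The genes with full values were the 4 with the lowest unadjusted p in each comparison, Hif1a, Epas1, Egln1, Egln3, the 4 Pdk genes and the members of 4 isozyme ratios, whose CPM took a pseudocount of 0.5. From the wider lists the 3 lowest p were given per comparison. Genes that the rule does not name, such as Pkm, Pfkm and Bnip3, were chosen after their values were seen. The members and lists were chosen with earlier results of these data known. Shared stretches were searched among annotated transcripts, and the motifs among RefSeq promoter windows. HIF protein sequences were not analysed here.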

Additional observations from a re-analysis of the deposited data

Results flagged for a closer look

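Each of the 35 genes was checked for a single library far from the others within the 4 mutant libraries, and 1 was found. Slc16a3 stood at 11.4 CPM in mutant_824 and at 9.04 to 9.38 in the other 3 mutant libraries, a gap of 0.857 of the range, above the critical value of Dixon's test for 4 samples. Chance gives such a gap in about 1 of 20 groups.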

How the results depend on the processing

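No paired analysis was possible because the groups share no replicate number. In the 3 comparisons 0 of the 35 genes were called under every alternative scaling, filter, tool and left-out library run, other than mutant against Cre-negative, where leaving out each library in turn gave 0 to 6. Over all genes the calls ran from 0 to 38 (mutant against wild type), 0 to 650 (Cre-negative against wild type) and 0 to 1835 (mutant against Cre-negative). With libraries left out in turn, the median of the 35 genes ran from -0.23 to 0.040 for Cre-negative against wild type and 0.031 to 0.26 for mutant against Cre-negative, the ends being those without cre_negative_780 and cre_negative_819. Between mutant and wild type the median was -0.055 with limma-voom and quality weights, which gave 10 of the 35 positive instead of 19.

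Mutant log2 fold changes near zero changed sign. With limma-voom these were Pdk1 (-0.055), Pdk2 (0.015), Hk1 (-0.044), Pfkl (-0.13) and Slc2a1 (-0.071). Hif1a came to 0.0029 with upper-quartile scaling and 0.0048 with a filter of 1 CPM in 4 libraries, and Egln1 to 0.00028 with a covariate for Y-linked transcripts. With each library left out, the ranges were -0.051 to 0.034 for Hif1a, -0.023 to 0.37 for Epas1, -0.095 to 0.049 for Egln1, -0.025 to 0.13 for Pdk1, -0.28 to 0.24 for Pdk2, -0.16 to 0.025 for Pdk3, -0.30 to 0.11 for Ldha, -0.017 to 0.057 for Hk1, -0.0016 to 0.088 for Pfkp, -0.050 to 0.21 for Pfkl and -0.027 to 0.17 for Slc2a1. For G6pdx against Cre-negative the range was -0.48 to 0.067. The cause was not tested.

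Ratios with the Cre-negative pair rested on single libraries. Against wild type they ran from -1.04 to 0.43 (Ldha to Ldhb), -0.71 to -0.043 (Hk2 to Hk1) and -0.012 to 0.62 (Pfkp to Pfkl), and mutant against Cre-negative from -0.97 to 0.50, -0.057 to 0.61 and -0.69 to -0.062. In the Y-linked classes, 0 of the 35 were called higher with any single wild-type or mutant library left out, beside 4 to 20 of all genes. With wild type and mutant alone the count was 4, beside 307 of 17708 genes. With the no-feature share as a covariate 8 were called higher and 4 lower, beside 1485 and 1645 of 18576 genes. This comparison and its alternatives were chosen after the data were seen.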

Other observations

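Neighbouring pathways were read in the same model of group and Y-linked class, chosen after the data were seen. Of the 69 wider pathway genes tested, 12 (17.4%) were higher at an unadjusted edgeR p under 0.05 in libraries with Y-linked transcripts and 6 lower, against 9.62% and 9.61% of all genes, and 0 were called at an adjusted p under 0.05. The pentose phosphate pathway, which makes NADPH and ribose, had 3 of 6 genes higher (H6pd, Taldo1 and Tkt), and its summed level was 1121 to 1358 CPM with and 883 to 1027 without Y-linked transcripts. Most of that sum was Tkt, at 683 to 854 and 507 to 617 CPM, and without Tkt the sums overlap. The other hypoxia-induced genes had 5 of 18 higher (Ak4, Gbe1, Gys1, Mif and Ndrg1) and 2 lower (Ddit4 and Ero1l), and summed to 1027 to 1103 and 927 to 990 CPM. The gap between these sums rests on Ndrg1, at 290 to 350 and 181 to 251 CPM, and without Ndrg1 the sums overlap. Ndrg1, a hypoxia-induced stress gene, had the lowest p of the wider lists, with means of 313 and 222 CPM, a log2 difference of 0.52 (SE 0.084) and an edgeR adjusted p of 0.0515. Genes of pyruvate entry into mitochondria had 0 of 8 higher and 0 lower, as did the 8 genes of other glucose and lactate transport. Gluconeogenesis, the opposite route, had 2 of 4 higher (G6pc3 and Pck2) and 0 lower, and summed to 246 to 287 and 206 to 235 CPM. Most of that sum was Pck2, at 147 to 170 and 139 to 145 CPM, and without Pck2 the sums overlap. Other glycolytic isozymes and branch enzymes had 1 of 17 higher (Bpgm) and 3 lower (Gapdhs, Pfkfb2 and Pklr). HIF machinery had 1 of 8 higher (Egln2) and 1 lower (Cited2), with a median log2 difference of -0.16.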
